A study of Homo sapiens with 16 samples.

Results

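The SLC25 family holds transport proteins that sit, with few exceptions, in the mitochondrial inner membrane, and it was taken from the deposited count table as every protein-coding gene whose symbol begins with SLC25A followed by a digit. This rule gave 48 members of 58735 genes in the table, 19951 of which were protein-coding. Messenger RNA had been sequenced in 16 libraries of the human cell lines MDA-MB-231 and SUM159 (written SUM159PT in the titles), both derived from triple-negative breast cancers. The 4 groups were MDA-MB-231 with the solvent DMSO, MDA-MB-231 with YES1i, SUM159 with DMSO and SUM159 with YES1i, with 4 libraries in each. YES1i (CH6953755) inhibits YES1, a kinase of the Src family, and was given at 8 uM with collection at 48 h, and the labels name no other alteration of the cells. Each line stands for 1 tumour and was kept in a medium of its own. The labels call the 4 libraries of a group technical replicates, so every p-value here measures the spread between those libraries and not between independent cultures.

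Carriers of this family exchange metabolites, nucleotides, cofactors and ions between cytosol and matrix. ADP/ATP carriers send new ATP out and bring ADP in, the phosphate carrier supplies ATP synthase, and the citrate carrier exports the carbon from which fatty acids are made in the cytosol. Most members share a fold of 3 tandem repeats with a signature motif in each, and they reach the inner membrane through the TIM22 import pathway.

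The libraries held 15876171 to 36261542 counts. Levels are given as CPM, read counts scaled to the library total, and 3 counts, the limit that a count of 0 allows, equal 0.0827 to 0.189 CPM, which covers counting error only. Between pairs of libraries of one group, the chi-square per degree of freedom over genes was 2.38 to 7.93 in MDA-MB-231. In SUM159 the pairs with YES1i replicate 2 reached 12.6 to 24.4 and those with DMSO replicate 1 reached 7.56 to 17.7, against 3.63 to 7.55 for the other pairs. Of 18 tested members given by library below, leaving out SUM159 DMSO replicate 1 changed the SUM159 call of 0, and leaving out YES1i replicate 2 changed that of 2, SLC25A3 and SLC25A42. Of the receptors whose absence defines the tumour type, ESR1 reached at most 0.734 CPM and PGR 0.114 CPM, while ERBB2 lay between 97.5 and 125 CPM. VIM, CD44 and AXL, markers of mesenchymal-like breast cancer lines, stood at 427 CPM or more in every library. AXL was lower with YES1i in MDA-MB-231 (log2 -0.93) and in SUM159 (-0.24). Epithelial markers were present too, with KRT8 at 237 to 844 CPM and KRT18 at 85 to 389 CPM. The highest library had 13.4 CPM of EPCAM, 4.36 of CDH1, 14.1 of KRT5 and 0.48 of KRT14. Among 12 markers of leukocytes, endothelium, fibroblasts and adipocytes, ADIPOQ was at 0 in every library, and DCN was at 0 in MDA-MB-231. PTPRC, CD3E, VWF and CDH5 stayed under 1 CPM, and the highest library had 2.54 CPM of CD14, 4.67 of PLIN1, 9.26 of PECAM1, 12.4 of CSF1R, 17.8 of PDGFRA, 20.1 of DCN and 828 of COL1A1. Over the whole set of tested genes, YES1i gave 26.8% called higher and 22.1% called lower for MDA-MB-231. The SUM159 shares were 25.1% and 26.5%. Of the 8 markers that were tested, 4 were called higher with YES1i in each line and 0 lower. These were PLIN1 (log2 2.76), VWF (1.58), PECAM1 (1.43) and CSF1R (0.41) in MDA-MB-231, and PLIN1 (2.66), CD14 (1.69), VWF (1.55) and DCN (1.12) in SUM159. Summed over the 12 markers, the level was 24.3 to 26.7 CPM with DMSO and 30.9 to 36.1 CPM with YES1i in MDA-MB-231, and 705 to 839 and 707 to 870 CPM in SUM159. Without COL1A1 the SUM159 sums were 26.2 to 31.6 CPM with DMSO and 41 to 42.8 CPM with YES1i. The part of these markers in the results was not tested. YES1, the kinase that the compound inhibits, was at 94.3 ± 3.92 CPM with DMSO and 93.3 ± 5.32 CPM with YES1i in MDA-MB-231 (SD, n = 4), and at 103 ± 3.61 and 88.9 ± 7.58 CPM in SUM159.

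The level of a member per length is given as CPM per kilobase of the deposited gene length, the scale on which members can be compared with each other. Summed over the family, this level was 844 to 883 CPM per kilobase in MDA-MB-231 with DMSO and 873 to 951 with YES1i, ranges that overlapped. In SUM159 it was 1130 to 1200 CPM per kilobase with DMSO and 1230 to 1310 with YES1i. A few carriers made up most of it. SLC25A6 (ADP/ATP carrier ANT3) led in each group, with 26.8% ± 0.895 of the family sum per kilobase in MDA-MB-231 with DMSO (SD, n = 4) and 41% ± 0.612 in SUM159 with DMSO. SLC25A5 (ADP/ATP carrier ANT2) followed with 25.4% ± 0.54 and 22.8% ± 0.835, and the phosphate carrier SLC25A3 came next with 7.2% ± 0.187 and 6.14% ± 0.0465. The deposited length of SLC25A3 is 8896 bases, against 2164 for SLC25A6 and 1500 for SLC25A5. Without length scaling SLC25A3 led in MDA-MB-231 with DMSO, at 19.1% of the family's CPM against 17.3% for SLC25A6.

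**Figure D1:**
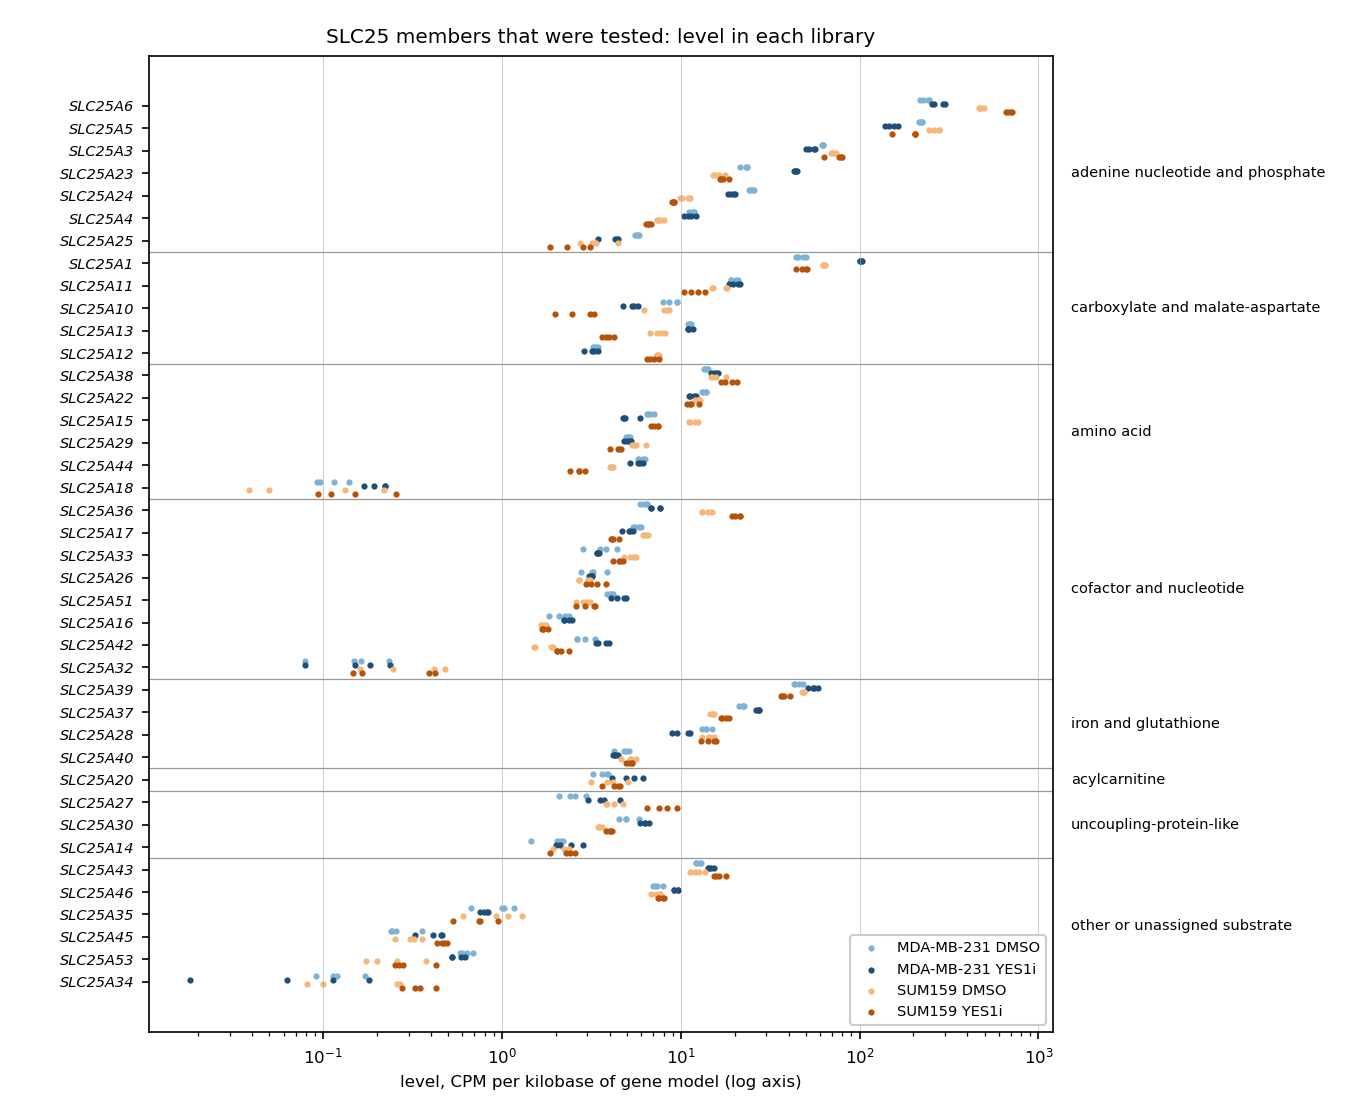
Level of 40 of the 41 tested members in each library, as CPM per kilobase of gene length on a log axis, grouped by role, with 1 point per library and a colour per group. The ADP/ATP carriers SLC25A6 and SLC25A5 stand highest, and SLC25A18, SLC25A32 and SLC25A34 lie among the lowest.

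Of the 48 members, 41 passed edgeR's filter on low counts and were tested. The 7 that did not pass were SLC25A2, SLC25A21, SLC25A31, SLC25A41, SLC25A47, SLC25A48 and SLC25A52, and their group means were at most 0.443 CPM. A gene was called when the Benjamini-Hochberg adjusted p of edgeR's quasi-likelihood test over all 17647 tested genes was under 0.05. In MDA-MB-231, 14 of the 41 members were called higher with YES1i and 9 lower, against 26.8% of all tested genes called higher and 22.1% called lower. In SUM159, 9 were called higher and 15 lower, against 25.1% and 26.5% of all tested genes. The balance in SUM159 depended on scaling. Upper quartile scaling gave 14 members higher and 12 lower, and RLE scaling and DESeq2 each gave 13 higher and 14 lower. Upper quartile scaling moved the median of all genes from 0.02 to 0.14 and the share of calls that were higher from 48.7% to 63.4%. With RLE scaling and with DESeq2 that median was 0.07 and that share 55%. The median log2 fold change of the members was -0.00 in both lines, beside 0.03 and 0.02 for all tested genes. Most changes were small, and a change of at least 2-fold was called for 2 members in MDA-MB-231 and 1 in SUM159, against 10.1% and 9.92% of all tested genes. In bulk libraries a lower level in fewer cells and less RNA per cell cannot be told apart.

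**Figure D2:**
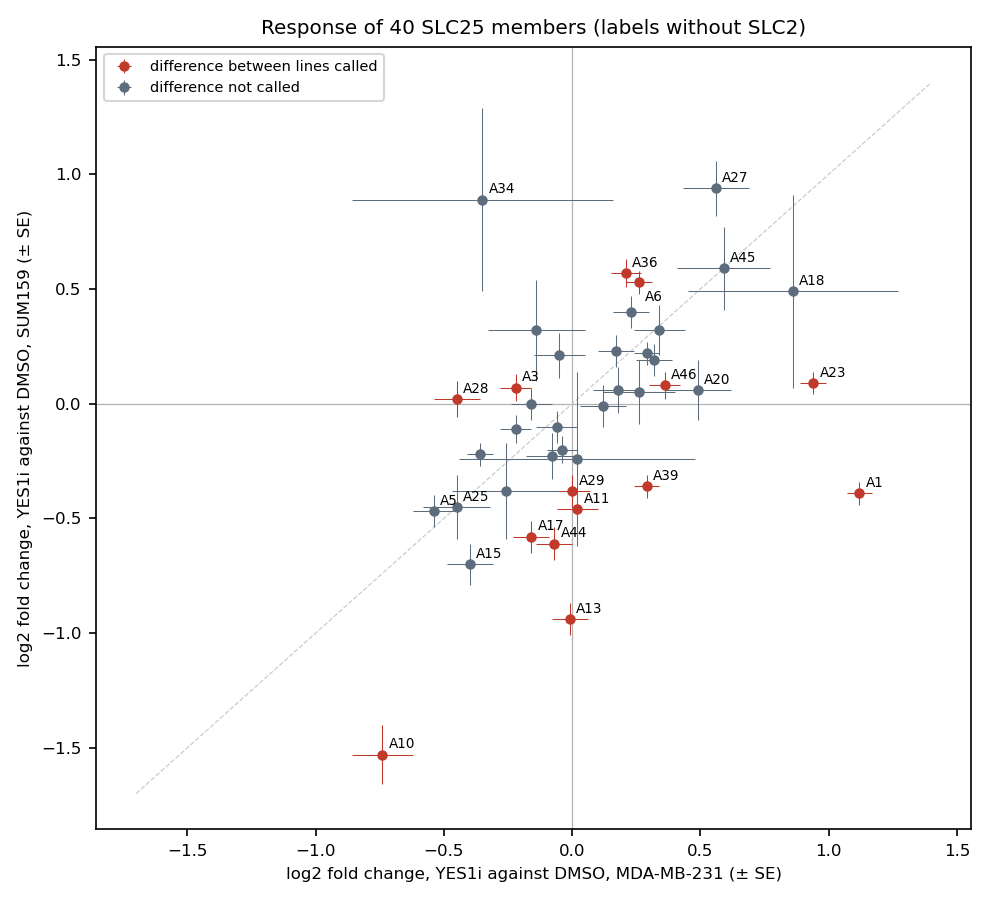
Log2 fold change of 40 of the 41 tested members with YES1i in MDA-MB-231 (horizontal axis) and SUM159 (vertical axis), with bars of 1 SE and a dashed line of equal change. Members whose changes were called different between the lines are red; SLC25A1 lies far to the right and below 0, while SLC25A5, SLC25A10 and SLC25A15 were lower and SLC25A6 and SLC25A27 higher in both lines.

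The 2 main ADP/ATP carriers moved in opposite directions, and they did so in both lines. SLC25A5 encodes the ADP/ATP carrier linked with growing cells. In MDA-MB-231 it stood at 323, 335, 335 and 326 CPM with DMSO and at 209, 218, 233 and 246 CPM with YES1i. In SUM159 it stood at 367, 418, 415 and 391 CPM with DMSO and at 307, 228, 306 and 307 CPM with YES1i. Every treated library lay below every control library of its line, and YES1i replicate 2 of SUM159 lay below its 3 fellows. The log2 fold change was -0.54 (SE 0.08, adjusted p = 2.04e-06) in MDA-MB-231 and -0.47 (SE 0.07, adjusted p = 1.33e-05) in SUM159. Without that library the SUM159 value was -0.38 (adjusted p = 3.2e-07), and without DMSO replicate 1 it was -0.51.

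SLC25A6 encodes the ADP/ATP carrier made in most tissues. Its levels in MDA-MB-231 were 470, 522, 488 and 526 CPM with DMSO and 552, 565, 648 and 633 CPM with YES1i. In SUM159 they were 1010, 1070, 1020 and 1010 CPM with DMSO and 1510, 1540, 1430 and 1470 CPM with YES1i. The groups of each line did not overlap, and all SUM159 libraries lay above all MDA-MB-231 libraries. The log2 fold change was 0.26 (SE 0.05, adjusted p = 0.000212) in MDA-MB-231 and 0.53 (SE 0.05, adjusted p = 1.96e-09) in SUM159, where it was 0.51 without YES1i replicate 2. The rise in MDA-MB-231 was the smaller one, by 0.27 on the log2 scale (SE 0.08, adjusted p = 0.00621).

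SLC25A4, the ADP/ATP carrier ANT1 of heart and skeletal muscle, was a minor form. It stood at 57.0, 57.0, 55.6 and 53.9 CPM with DMSO and 53.4, 50.4, 58.5 and 55.3 CPM with YES1i in MDA-MB-231, where the groups overlapped. In SUM159 it stood at 36.2, 39.2, 36.9 and 35.4 CPM with DMSO and 30.9, 33.1, 31.9 and 32.3 CPM with YES1i, and the groups did not overlap. The SUM159 fall was -0.20 on the log2 scale (SE 0.06, adjusted p = 0.00679), and it was -0.08 with upper quartile scaling (adjusted p = 0.256). SLC25A31, the testis form ANT4, had 1 count in replicate 3 of each YES1i group and 0 in the other 14 libraries.

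Per length, SLC25A6 made up 50% ± 1.3 of the ADP/ATP carrier transcripts in MDA-MB-231 with DMSO and 63.1% ± 0.767 with YES1i (SD, n = 4). In SUM159 the share was 63.6% ± 1.13 with DMSO and 77.6% ± 2.75 with YES1i. SLC25A5 went from 47.5% ± 1.2 to 34.4% ± 0.821 in MDA-MB-231 and from 35.4% ± 1.14 to 21.6% ± 2.77 in SUM159. The ratio of SLC25A6 to SLC25A5 per length was 1.01, 1.08, 1.01 and 1.12 in MDA-MB-231 with DMSO and 1.83, 1.79, 1.93 and 1.78 with YES1i. In SUM159 it was 1.92, 1.78, 1.70 and 1.79 with DMSO and 3.42, 4.67, 3.24 and 3.31 with YES1i. The treated libraries lay above the controls in each line, and the treated MDA-MB-231 libraries, at 1.78 to 1.93, overlapped the SUM159 controls, at 1.70 to 1.92. SUM159 YES1i replicate 2 had the highest ratio, and the other 3 ran from 3.24 to 3.42. The ratio has no test of its own, and the absolute shares depend on the deposited gene lengths.

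**Figure D3:**
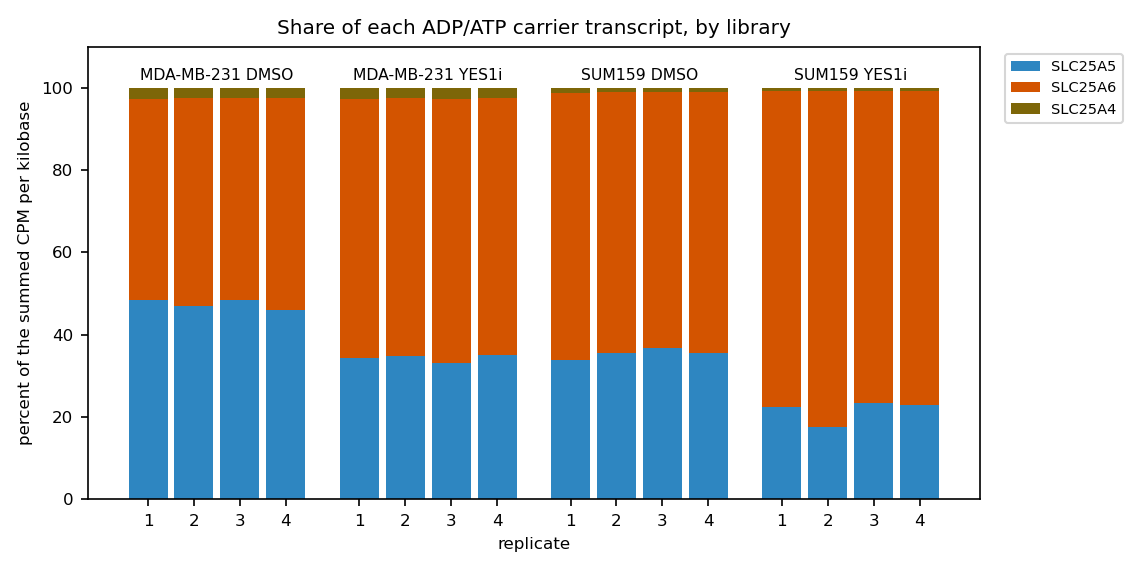
Share of SLC25A5, SLC25A6 and SLC25A4 in the summed CPM per kilobase of the ADP/ATP carriers, 1 bar per library, in percent. The SLC25A6 segment is longer in the YES1i libraries of both lines, with means of 63.1% against 50% in MDA-MB-231 and 77.6% against 63.6% in SUM159.

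Promoter windows from RefSeq (GRCh38.p14) were matched to 40 of the 48 members by symbol, and the 250 bases before each start were searched on both strands for 6 motifs. SLC25A5 and SLC25A6 are shown because they moved apart, and SLC25A1 because its direction turned between the lines. The window of SLC25A5 held 1 TATA box (TATAAA) beginning 27 bases before the start, and no CCAAT box (CCAAT). The window of SLC25A6 held 2 CCAAT boxes, beginning 191 and 84 bases before the start, and no TATA box. The window of SLC25A1 held 1 CCAAT box on the opposite strand, 185 bases before the start, and no TATA box. The lines below give 30 bases around each of these, 5′ to 3′ on the strand of the gene, with the motif in capitals.

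SLC25A5 TATA box: cggctccccctaTATAAAtcggccatttgc
SLC25A6 CCAAT box, distal: cggggagcgcagCCAATgggcgcggttcgc
SLC25A6 CCAAT box, proximal: ctggcggcgcagCCAATgagcgcggcgcga
SLC25A1 CCAAT box: tcggcctcggccATTGGctgcgctttggcc

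The SLC25A5 stretch is chrX:119468405-119468434 on the plus strand, where the deposited gene model begins at 119468400. The SLC25A6 stretches are chrX:1392287-1392316 and chrX:1392180-1392209 on the minus strand, within the deposited gene model, which reaches 1392724. The SLC25A1 stretch is chr22:19178904-19178933 on the minus strand, upstream of the deposited gene model, which ends at 19178830. Across all 35087 windows of this length, TATAAA was found in 10.7% and CCAAT in 32%, and in 4 and 21 of the 50 members' windows. The Sp1 box GGGCGG had 5 matches in SLC25A5, 4 in SLC25A6 and 8 in SLC25A1, and it was found in 42.6% of all windows and 33 of the 50. The E-box CACGTG, the sterol response element TCACNCCAC and the NRF1 core CGCATGCG had no match in these 3 windows. They were found in 6.34%, 0.884% and 1.73% of all windows and in 8, 1 and 0 of the 50. A match describes the letters of the window and does not show a bound site.

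The phosphate carrier SLC25A3 was slightly lower with YES1i in MDA-MB-231. It stood at 556, 554, 557 and 549 CPM with DMSO and at 447, 466, 495 and 498 CPM with YES1i, with a log2 fold change of -0.22 (SE 0.06, adjusted p = 0.00247). In SUM159 it stood at 618, 656, 631 and 627 CPM with DMSO and at 704, 560, 706 and 684 CPM with YES1i. YES1i replicate 2 lay below all controls and the other 3 treated libraries above them. The SUM159 value of 0.07 was not called (adjusted p = 0.338), while without replicate 2 it was 0.14 (adjusted p = 0.0117). Upper quartile scaling also called it, at 0.19 (adjusted p = 0.00415).

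The ATP-Mg/phosphate carriers, which are regulated by calcium and set the adenine nucleotide pool of the matrix, did not move together. SLC25A23 was at 114, 114, 104 and 113 CPM with DMSO in MDA-MB-231 and at 210, 213, 213 and 216 CPM with YES1i. This was a rise of 1.92-fold (log2 0.94, SE 0.05, adjusted p = 5.19e-15), with all treated libraries above all controls. In SUM159 it was at 75.7, 79.9, 86.1 and 73.5 CPM with DMSO and 90.0, 83.2, 80.9 and 80.6 CPM with YES1i, groups that overlapped (log2 0.09, adjusted p = 0.191). With RLE scaling, upper quartile scaling and DESeq2 the SUM159 change was called, at 0.14, 0.21 and 0.13, as it was without DMSO replicate 3 (0.14, adjusted p = 0.0405). SLC25A24 moved the other way in both lines. It was at 172, 162, 166 and 168 CPM with DMSO and 128, 135, 123 and 132 CPM with YES1i in MDA-MB-231 (log2 -0.36, adjusted p = 3.73e-07). Its SUM159 levels were 75.1, 68.5, 66.8 and 73.7 CPM with DMSO and 61.8, 60, 60.5 and 61.4 CPM with YES1i (log2 -0.22, adjusted p = 0.000561), a call that upper quartile scaling ended (-0.10, adjusted p = 0.0926). The groups of SLC25A24 did not overlap in either line.

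SLC25A25, the third calcium-regulated form, was at 28.3, 27.2, 28.6 and 28.0 CPM with DMSO and 21.1, 16.9, 22.1 and 21.8 CPM with YES1i in MDA-MB-231. The SUM159 libraries stood at 15.8, 21.9, 16.6 and 13.5 CPM with DMSO and 13.9, 9.15, 15.3 and 11.4 CPM with YES1i, and there the groups overlapped. The log2 fold change was -0.45 in both lines (adjusted p = 0.00674 and 0.0111). SLC25A25 overlaps NAIF1 and SLC25A25-AS1, each with at least 10% of its count, so that its value is uncertain where reads of the 2 strands were not separated.

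The citrate carrier SLC25A1 had the largest rise of the family in MDA-MB-231 and was lower in SUM159. Its levels in MDA-MB-231 were 92.7, 101, 94.9 and 105 CPM with DMSO and 210, 212, 214 and 216 CPM with YES1i. In SUM159 they were 130, 135, 130 and 134 CPM with DMSO and 105, 92.0, 99.9 and 106 CPM with YES1i. The groups did not overlap in either line, and the directions were opposite. The change was 2.17-fold in MDA-MB-231 (log2 1.12, SE 0.05, adjusted p = 5.78e-17) and 0.761-fold in SUM159 (log2 -0.39, SE 0.05, adjusted p = 1.91e-07), the latter at -0.35 without YES1i replicate 2. The 2 changes differed by 1.51 on the log2 scale (SE 0.07, adjusted p = 5.1e-16).

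Most genes listed for the route from cytosolic citrate and acetate to fatty acids had the same opposite directions. This list was chosen with earlier results of these data known. Of its 8 genes, 8 were called higher in MDA-MB-231, against 26.8% of all tested genes, with a median log2 fold change of 0.62. In SUM159 6 of the 8 were called lower, against 26.5% of all tested genes, with a median of -0.73. None was called higher there, and ME1 (-0.02) and ACACB (-0.03) were not called. For 7 of the 8 the difference between the lines was itself called, against 19.1% of all tested genes called with the higher change in MDA-MB-231. ACLY, which splits exported citrate, was at 398 ± 1.74 CPM with DMSO and 560 ± 24.2 CPM with YES1i in MDA-MB-231 (SD, n = 4) and at 548 ± 16.5 and 315 ± 10.6 CPM in SUM159. FASN, the fatty acid synthase, was at 544 ± 42.3 and 1410 ± 79.7 CPM and at 1400 ± 149 and 660 ± 84.9 CPM. ACSS2, which makes acetyl-CoA from acetate, had the largest rise in MDA-MB-231, a log2 fold change of 2.26 (SE 0.07, adjusted p = 1.44e-19).

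SLC25A10, the dicarboxylate carrier that exchanges malate or succinate for phosphate, had the largest fall in SUM159. It was at 16.3, 22.1, 22.6 and 21.0 CPM with DMSO and 8.51, 5.16, 6.47 and 8.18 CPM with YES1i there. In MDA-MB-231 it was at 20.8, 25.1, 22.5 and 24.9 CPM with DMSO and 12.5, 14.4, 15.1 and 13.9 CPM with YES1i. Treated libraries lay below the controls in both lines. The log2 fold change was -1.53 (SE 0.13, adjusted p = 9.39e-11) in SUM159, -1.39 without YES1i replicate 2, and -0.74 (SE 0.12, adjusted p = 8.02e-06) in MDA-MB-231. The fall was the steeper one in SUM159 by 0.79 on the log2 scale (SE 0.18, adjusted p = 0.000882).

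The aspartate/glutamate carriers and the oxoglutarate carrier SLC25A11 form the membrane steps of the malate-aspartate shuttle, which carries NADH equivalents into the matrix. SLC25A13 (AGC2) was at 27.3, 24.8, 28.7 and 30.3 CPM with DMSO in SUM159 and at 14.1, 14.6, 13.4 and 15.7 CPM with YES1i. Its MDA-MB-231 levels were 41.5, 40.7, 42.2 and 41.8 CPM with DMSO and 40.6, 41.3, 40.3 and 43.4 CPM with YES1i. The SUM159 groups were fully apart and the MDA-MB-231 groups overlapped. The change was -0.94 on the log2 scale in SUM159 (SE 0.07, adjusted p = 8.85e-12) and -0.01 in MDA-MB-231 (SE 0.07), and the difference of 0.93 was called (SE 0.10, adjusted p = 1.4e-08). SLC25A12 (AGC1) was not called with YES1i in either line (log2 -0.06 and -0.10). Its treated libraries ran from 14.8 to 17.9 CPM in MDA-MB-231 and from 33.2 to 39.1 CPM in SUM159, and the groups overlapped in both lines. SLC25A11 was at 44.1 ± 4.52 CPM with DMSO and 32.0 ± 3.73 CPM with YES1i in SUM159 (log2 -0.46, adjusted p = 1.54e-05) and was at 53.0 ± 2.5 and 53.7 ± 3.32 CPM in MDA-MB-231. SLC25A11 overlaps RNF167, with at least 10% of its count.

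Of the 4 soluble enzymes of the shuttle, 4 were called lower in SUM159 and 2 in MDA-MB-231, and none was called higher. GOT2, the matrix aminotransferase, was at 127 ± 2.65 CPM with DMSO and 85.7 ± 1.84 CPM with YES1i in MDA-MB-231 and at 206 ± 14.4 and 136 ± 5.53 CPM in SUM159. Of 17 enzymes of the tricarboxylic acid cycle, which exchanges intermediates through these carriers, 12 were called lower in SUM159 and none higher, and in MDA-MB-231 7 were lower and 2 higher. Beside both lists, 26.5% of all tested genes were called lower and 25.1% higher in SUM159, and 22.1% lower and 26.8% higher in MDA-MB-231. FH, the fumarase, had a log2 fold change of -0.59 in MDA-MB-231 and -0.67 in SUM159. These lists were chosen with earlier results of these data known.

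**Figure D4:**
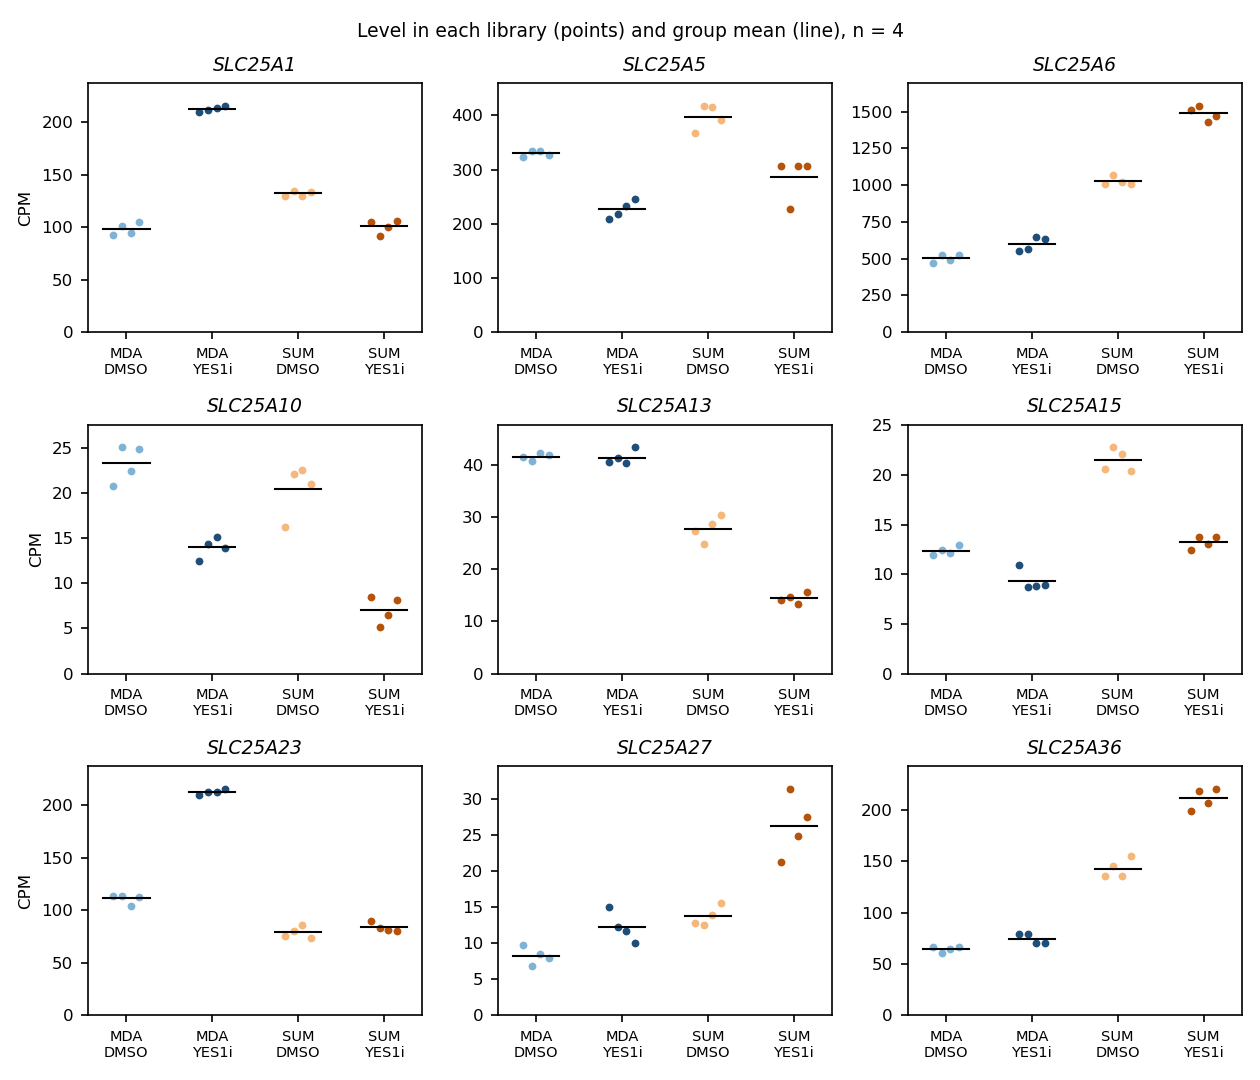
CPM of 9 members in each library (points, 4 per group) with the group mean (line), on axes that start at 0. SLC25A1 was called higher in MDA-MB-231 and lower in SUM159, and SLC25A23 was called higher in MDA-MB-231 only. SLC25A5, SLC25A10 and SLC25A15 were lower in both lines, SLC25A13 was lower in SUM159, and SLC25A6, SLC25A27 and SLC25A36 were higher in both.

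Of the 6 tested amino acid carriers, 1 was called higher and 2 lower in MDA-MB-231, and 1 higher and 3 lower in SUM159. All tested genes gave 26.8% higher and 22.1% lower in MDA-MB-231, and 25.1% higher and 26.5% lower in SUM159. The mitochondrial ornithine carrier SLC25A15, a step of the urea cycle and of polyamine precursors, was lower in both. It was at 20.6, 22.8, 22.1 and 20.4 CPM with DMSO and 12.4, 13.7, 13.0 and 13.7 CPM with YES1i in SUM159 (log2 -0.70, SE 0.09, adjusted p = 8.4e-08). In MDA-MB-231 it was at 11.9, 12.4, 12.1 and 12.9 CPM with DMSO and 10.9, 8.76, 8.83 and 8.95 CPM with YES1i (log2 -0.40, SE 0.09, adjusted p = 0.000665). No group overlapped its control, and YES1i replicate 1 of MDA-MB-231 lay nearest to it. SLC25A44, a carrier of branched-chain amino acids, was at 29.8 ± 0.351 CPM with DMSO and 19.5 ± 1.6 CPM with YES1i in SUM159 (log2 -0.61, adjusted p = 2.87e-08). It was at 43.8 ± 1.73 and 41.8 ± 2.91 CPM in MDA-MB-231 (log2 -0.07, adjusted p = 0.426). SLC25A29, a carrier of basic amino acids, was lower in SUM159 (log2 -0.38, adjusted p = 2.33e-05) and was at 37.7 ± 0.732 and 37.6 ± 1.56 CPM in MDA-MB-231. The glutamate carrier SLC25A22 was lower in MDA-MB-231 (log2 -0.22, adjusted p = 0.00163) and was not called in SUM159 (log2 -0.11, adjusted p = 0.0979), where it was called without YES1i replicate 1 (-0.15, adjusted p = 0.0326). SLC25A38, which supplies glycine for heme, was called higher in both lines, at 0.17 and 0.23 on the log2 scale. The MDA-MB-231 call of SLC25A38 had an adjusted p of 0.0496, which was 0.0562 with RLE scaling, 0.0552 with DESeq2, 0.0732 with the replicate number as a block and 0.199 without the low-count filter. It was 0.0641 to 0.122 without any 1 of the MDA-MB-231 DMSO libraries or of YES1i replicates 2, 3 and 4, and 0.0546 to 0.0549 without SUM159 DMSO replicate 3 or 4. SLC25A18 was under 1 CPM on average in each group and was not called, except when the MDA-MB-231 libraries were fitted by themselves (0.82, adjusted p = 0.0347).

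Among the carriers of cofactors and nucleotides, SLC25A36, a pyrimidine nucleotide carrier, was higher in both lines. It was at 66.7, 61.0, 64.2 and 66.5 CPM with DMSO and 79.3, 79.2, 70.3 and 69.9 CPM with YES1i in MDA-MB-231. SUM159 gave 136, 145, 136 and 155 CPM with DMSO and 199, 219, 207 and 221 CPM with YES1i. No treated library overlapped its controls, and the SUM159 rise of 0.57 exceeded the MDA-MB-231 rise of 0.21 by 0.36 on the log2 scale (SE 0.08, adjusted p = 0.000922). The other pyrimidine nucleotide carrier, SLC25A33, was at 20.2 ± 1.33 and 17.3 ± 0.996 CPM in SUM159, where its fall of 0.23 on the log2 scale had an adjusted p of 0.0491 that other settings ended. It was 0.124 with RLE scaling, 0.35 with upper quartile scaling, 0.123 with DESeq2, 0.0701 with the replicate number as a block and 0.0727 without the low-count filter. It was 0.0609 to 0.141 without SUM159 DMSO replicate 1, 3 or 4, SUM159 YES1i replicate 2, 3 or 4, MDA-MB-231 DMSO replicate 1 or 4, or any 1 of the MDA-MB-231 YES1i libraries.

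SLC25A42, a coenzyme A carrier, was at 11.9, 15, 13.2 and 11.9 CPM with DMSO and 15.6, 17.9, 15.2 and 17.1 CPM with YES1i in MDA-MB-231. In SUM159 it was at 8.53, 6.84, 6.93 and 8.69 CPM with DMSO and 9.23, 10.7, 9.23 and 9.69 CPM with YES1i. The rises were 0.34 (adjusted p = 0.0068) and 0.32 (adjusted p = 0.0166) on the log2 scale. The SUM159 call was lost without YES1i replicate 2 (adjusted p = 0.0588), without DMSO replicate 2 (0.052) and without DMSO replicate 3 (0.0585). The other coenzyme A carrier SLC25A16, the NAD carrier SLC25A51 and the S-adenosylmethionine carrier SLC25A26 were not called in either line. SLC25A26 was called higher in SUM159 with RLE scaling (0.26, adjusted p = 0.0257), upper quartile scaling (0.33, adjusted p = 0.0049) and DESeq2 (0.26, adjusted p = 0.0222), and without MDA-MB-231 DMSO replicate 2 (0.049), SUM159 DMSO replicate 3 (0.0416) or SUM159 YES1i replicate 2 (0.0274). SLC25A17, which carries cofactors into peroxisomes, was lower in SUM159 (log2 -0.58, adjusted p = 1.27e-07) and not called in MDA-MB-231 (-0.16, adjusted p = 0.0818), where a fit of that line alone called it (-0.20, adjusted p = 0.0196).

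SLC25A32, the carrier of folate and FAD, averaged 0.571 to 1.19 CPM and was not called with YES1i. Its gene overlaps DCAF13. Of 6 enzymes of mitochondrial folate metabolism, 4 were called lower in MDA-MB-231 and none higher, and in SUM159 3 were higher and 1 lower. Over all tested genes, 22.1% were called lower and 26.8% higher in MDA-MB-231, and 25.1% higher and 26.5% lower in SUM159. MTHFD2, the folate dehydrogenase of the matrix, was at 37.3 ± 1.7 CPM with DMSO and 22.6 ± 2.69 CPM with YES1i in MDA-MB-231 and at 237 ± 9.16 and 357 ± 20.6 CPM in SUM159. ALDH1L2, the formyl-tetrahydrofolate dehydrogenase of mitochondria, had the largest called rise of the list in SUM159 (log2 0.81, adjusted p = 0.00233) at 1.85 ± 0.439 and 3.22 ± 0.588 CPM.

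The mitoferrins SLC25A37 and SLC25A28 import iron for heme and iron-sulfur clusters. SLC25A37 was higher in both lines, at 180 ± 4.79 CPM with DMSO and 220 ± 5.14 CPM with YES1i in MDA-MB-231 (log2 0.29, adjusted p = 4.58e-06) and at 122 ± 3.19 and 142 ± 6.98 CPM in SUM159 (log2 0.22, adjusted p = 0.000283). SLC25A28 was at 23.2, 26.1, 24.2 and 24.2 CPM with DMSO and 15.6, 19.9, 19.3 and 16.6 CPM with YES1i in MDA-MB-231. Its SUM159 levels were 26.8, 25.1, 22.9 and 25.1 CPM with DMSO and 27.7, 22.7, 24.8 and 26.8 CPM with YES1i. The MDA-MB-231 groups were apart and the SUM159 groups overlapped. The log2 fold change of -0.45 in MDA-MB-231 (SE 0.09, adjusted p = 6.56e-05) differed from the 0.02 in SUM159 by -0.48 (SE 0.12, adjusted p = 0.00276). Of 12 genes of iron-sulfur cluster and heme synthesis, 3 were called higher and 4 lower in MDA-MB-231, and 1 higher and 9 lower in SUM159. This is 25% and 33.3% in MDA-MB-231, against 26.8% and 22.1% of all tested genes. In SUM159 it is 8.33% and 75%, against 25.1% and 26.5%. CPOX, an enzyme of heme synthesis, had a log2 fold change of 0.51 in MDA-MB-231 and -0.34 in SUM159.

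SLC25A39, which brings glutathione into the matrix, was the other member called in opposite directions. It was at 159 ± 8.65 CPM with DMSO and 194 ± 11.1 CPM with YES1i in MDA-MB-231 (log2 0.29, SE 0.05, adjusted p = 2.9e-05) and at 172 ± 2.2 and 134 ± 6.72 CPM in SUM159 (log2 -0.36, SE 0.05, adjusted p = 1.01e-06). The difference was 0.65 (SE 0.07, adjusted p = 4.77e-08), and the groups did not overlap in either line. Its relative SLC25A40 was at 24.3 ± 1.93 and 21.8 ± 0.564 CPM in MDA-MB-231 and at 26.3 ± 2.02 and 26.4 ± 0.937 CPM in SUM159, and was not called. In MDA-MB-231 it was called lower in a fit of that line alone (-0.20, adjusted p = 0.0173) and without DMSO replicate 2 (-0.21, adjusted p = 0.0306). SLC25A40 overlaps DBF4, with at least 10% of its count. Of 7 genes of glutathione synthesis and use, 4 were called higher and 3 lower in MDA-MB-231, and 2 higher and 3 lower in SUM159. That is 57.1% and 42.9% in MDA-MB-231, beside 26.8% higher and 22.1% lower of all tested genes. For SUM159 it is 28.6% and 42.9%, beside 25.1% and 26.5%. GCLC, the catalytic subunit of the first step of glutathione synthesis, was called higher in both lines, by 0.89 on the log2 scale in MDA-MB-231 and 0.30 in SUM159. GSS, the next step, was called lower in both, with log2 fold changes of -0.23 in MDA-MB-231 and -0.68 in SUM159.

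SLC25A20, which carries acylcarnitines to fatty acid oxidation, was at 7.22, 6.43, 7.65 and 7.75 CPM with DMSO and 8.20, 9.74, 10.8 and 12.1 CPM with YES1i in MDA-MB-231. The SUM159 libraries stood at 7.61, 6.26, 8.26 and 9.99 CPM with DMSO and 8.87, 7.16, 9.06 and 8.39 CPM with YES1i. The rise in MDA-MB-231 was 0.49 on the log2 scale (SE 0.13, adjusted p = 0.00285), and the SUM159 groups overlapped (0.06, adjusted p = 0.751). The difference between the lines was not called (0.44, SE 0.19, adjusted p = 0.0821), and it was called without MDA-MB-231 YES1i replicate 1 (adjusted p = 0.0338) or SUM159 DMSO replicate 2 (0.0351). Of 10 genes of the carnitine system and fatty acid oxidation, 8 were called higher and none lower in MDA-MB-231, and 5 higher and 1 lower in SUM159. Shares over all tested genes were 26.8% higher and 22.1% lower in MDA-MB-231, and 25.1% higher and 26.5% lower in SUM159. CPT1A, the outer-membrane carnitine palmitoyltransferase, was at 76.7 ± 2.22 CPM with DMSO and 154 ± 3.65 CPM with YES1i in MDA-MB-231 and at 35.3 ± 1.31 and 53.8 ± 3.89 CPM in SUM159. HADHB, a subunit of the trifunctional protein of fatty acid oxidation, had the largest called rise of the list in SUM159, a log2 fold change of 0.67, and 0.40 in MDA-MB-231.

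Members related to uncoupling proteins were higher or not called. SLC25A27 (UCP4) was at 12.8, 12.5, 13.9 and 15.6 CPM with DMSO and 21.2, 31.4, 24.8 and 27.5 CPM with YES1i in SUM159. Its MDA-MB-231 levels were 9.74, 6.86, 8.41 and 7.89 CPM with DMSO and 15, 12.2, 11.7 and 10.0 CPM with YES1i. All treated libraries lay above the controls of their line. The log2 fold change was 0.94 (SE 0.12, adjusted p = 2.58e-07) in SUM159, 0.85 without YES1i replicate 2, and 0.56 (SE 0.13, adjusted p = 0.000908) in MDA-MB-231. SLC25A30 was called higher in both lines, at 0.32 and 0.19, the latter with an adjusted p of 0.0329 that was 0.0714 without YES1i replicate 2. This SUM159 call was also lost without DMSO replicate 1 (0.0826), DMSO replicate 2 (0.0551) or YES1i replicate 3 (0.0565), and without the low-count filter (0.0802). SLC25A30 overlaps TPT1-AS1, and SLC25A14 was not called. UCP2, a carrier of the same fold that is named outside the series, moved the other way, with 97 ± 4.32 CPM in the controls and 44.7 ± 3.85 CPM in the treated libraries in MDA-MB-231 (log2 -1.12, adjusted p = 6.39e-13) and at 0.789 ± 0.265 and 0.203 ± 0.125 CPM in SUM159.

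Among members with other or unassigned substrates, SLC25A43 was at 42.2, 37.2, 39.3 and 34.8 CPM with DMSO and 51.0, 55.9, 49.4 and 47.8 CPM with YES1i in SUM159. In MDA-MB-231 it was at 39.8, 37.8, 37.7 and 40.3 CPM with DMSO and 44.7, 45.7, 44.2 and 47.8 CPM with YES1i. The groups did not overlap in either line, with rises of 0.40 (SE 0.07, adjusted p = 6.85e-06) and 0.23 (SE 0.07, adjusted p = 0.00471). SLC25A45 rose by 0.59 in both lines at 2.15 to 3.65 CPM. SLC25A46, an outer-membrane member that shapes mitochondria, was at 61.0 ± 3.47 CPM with DMSO and 78.1 ± 2.4 CPM with YES1i in MDA-MB-231 (log2 0.36, adjusted p = 4.28e-06) and was not called in SUM159 (0.08, adjusted p = 0.226), where it was called with upper quartile scaling (0.20, adjusted p = 0.00278), RLE scaling (0.13, adjusted p = 0.0473) and DESeq2 (0.13, adjusted p = 0.0326). SLC25A34, SLC25A35 and SLC25A53 were not called with YES1i. SLC25A34 was called higher in SUM159 with RLE scaling (0.94, adjusted p = 0.0488), upper quartile scaling (1.01, adjusted p = 0.0342) and DESeq2 (0.96, adjusted p = 0.0481), and without SUM159 DMSO replicate 1 (0.03) or 4 (0.0499) or MDA-MB-231 YES1i replicate 1 (0.0464). In the same line SLC25A35 was called lower without DMSO replicate 4 (0.0255) or YES1i replicate 2 (0.0405), and SLC25A53 higher without DMSO replicate 2 (0.0409).

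The machinery through which these carriers reach the inner membrane was mostly lower. Of 12 genes of the TIM22 import pathway, 7 were called lower and 2 higher in MDA-MB-231, and 7 lower and 3 higher in SUM159. Among all tested genes, 22.1% were called lower and 26.8% higher in MDA-MB-231, and 26.5% lower and 25.1% higher in SUM159. TOMM40, the channel of the outer membrane, was at 155 ± 4.84 CPM with DMSO and 81.6 ± 3.94 CPM with YES1i in MDA-MB-231 and at 141 ± 4.54 and 84.4 ± 4.67 CPM in SUM159. TIMM10, a chaperone of the intermembrane space that hands carriers over, was at 25.3 ± 0.3 and 13.2 ± 1.86 CPM and at 19.3 ± 1.28 and 12.1 ± 0.201 CPM. Of 11 other gateways of the mitochondrion, 6 were called lower and 1 higher in MDA-MB-231, and 8 lower and 2 higher in SUM159. SFXN1, the serine transporter of the inner membrane, had a log2 fold change of -0.55 in both lines, and its relative SFXN2 had -0.67 in MDA-MB-231 and -0.46 in SUM159.

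The change with YES1i differed between the lines for 14 of the 41 members, a comparison that uses the same libraries as the 2 changes. The difference was called higher, meaning the more positive change in MDA-MB-231, for 10 members, against 19.1% of all tested genes. It was called lower for 4 members, against 12.1%. A called difference of at least 2-fold was found for 1 member, SLC25A1, against 6.24% of all tested genes. With upper quartile scaling these counts were 9 and 8, and the share of all called differences that were higher went from 61.2% to 43.9%. The 3 largest on the higher side at 5 CPM or more were SLC25A1, SLC25A13 and SLC25A23, at 1.51, 0.93 and 0.85 on the log2 scale. On the lower side they were SLC25A28, SLC25A36 and SLC25A3, at -0.48, -0.36 and -0.28. Of the 5 tested carboxylate and malate-aspartate carriers, 4 had a called difference, each on the higher side, and SLC25A12 was the exception at 0.03 (SE 0.10).

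In DMSO the lines differed for most members, a comparison that shares its control libraries with the changes above. Of the 41 members, 13 were called higher in MDA-MB-231 and 13 lower, against 37.8% and 38.7% of all tested genes, with a median log2 fold change of -0.04 (all genes -0.02). Differences of at least 2-fold were called for 7 of the 41 members, against 38.5% of all tested genes. SLC25A24 was higher in MDA-MB-231, where its 4 DMSO libraries stood at 162 to 172 CPM against 66.8 to 75.1 CPM in SUM159 (log2 1.23, SE 0.05, adjusted p = 2.94e-19). SLC25A42 and SLC25A25 were higher in MDA-MB-231 by 0.74 each. SLC25A53 had the largest value, 1.36 (SE 0.20), at a mean of 4.27 CPM against 1.73 CPM, and its gene overlaps ZCCHC18.

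SLC25A12 was lower in MDA-MB-231, at 17.8, 17.3, 16.9 and 16.7 CPM against 38.2, 38.2, 38.1 and 39.0 CPM in SUM159. The value was -1.16 (SE 0.07, adjusted p = 6.6e-15), and the gene overlaps HAT1 and METAP1D. SLC25A13, the other aspartate/glutamate carrier, was higher in MDA-MB-231 by 0.58 (SE 0.07, adjusted p = 7.62e-09). Per length the 2 forms stood at 3.33 ± 0.0899 (SLC25A12) and 11.2 ± 0.166 (SLC25A13) CPM per kilobase in MDA-MB-231 and at 7.42 ± 0.0839 and 7.49 ± 0.632 in SUM159 (SD, n = 4). With YES1i the SUM159 levels were 6.94 ± 0.483 for SLC25A12 and 3.9 ± 0.259 for SLC25A13. SLC25A36 (-1.15, SE 0.06) and SLC25A6 (-1.04, SE 0.05) were also lower in MDA-MB-231, as the levels given above show. SLC25A32 was called lower too (-1.09, SE 0.41, adjusted p = 0.0168), but not without MDA-MB-231 replicate 1 (0.072), SUM159 replicate 1 (0.0627) or SUM159 replicate 3 (0.0786). SLC25A38 and SLC25A29 were called lower by 0.19 and 0.17, calls that single DMSO libraries decided. The SLC25A38 call was lost without MDA-MB-231 replicate 1 (0.0586) or SUM159 replicate 2 (0.118), and that of SLC25A29 without MDA-MB-231 replicate 1 (0.0589), 2 (0.0613) or 3 (0.076) or SUM159 replicate 3 (0.186).

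**Figure D5:**
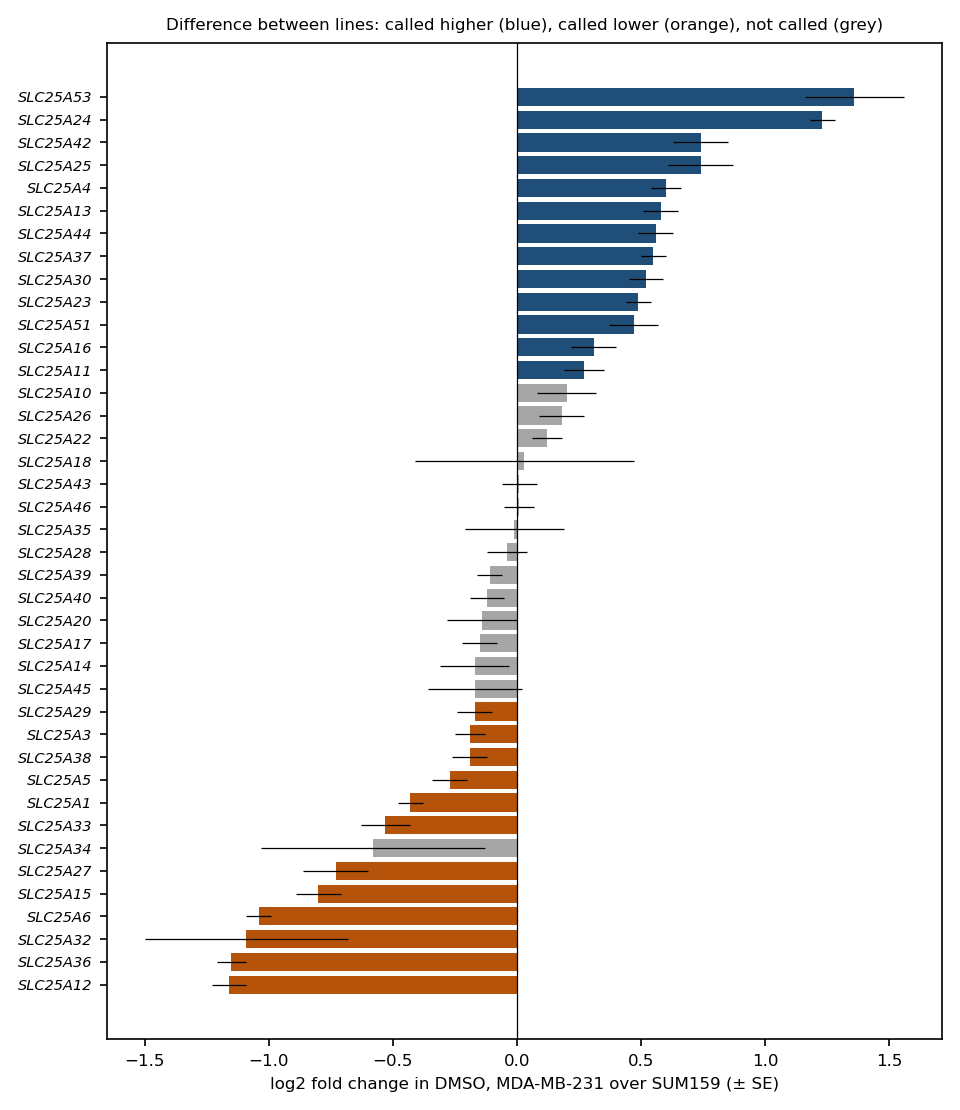
Log2 fold change between MDA-MB-231 and SUM159 in DMSO for 40 of the 41 tested members, with bars of 1 SE, in order of value. Called members are blue (higher in MDA-MB-231) or orange (lower), and run from 1.36 for SLC25A53 to -1.16 for SLC25A12.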

How the data were processed

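Libraries were made from poly-T selected messenger RNA, per the labels' protocols, which do not say whether they kept the strand. The authors deposited 1 table of read counts per gene for the 16 libraries, with gene names, biotypes, coordinates and gene lengths, and these counts were used as deposited. Named in the submitters' processing notes are featureCounts 1.5.0-p3, HISAT2 2.0.5 and hg38 as the build. How reads on overlapping genes, on either strand or at several sites were counted, and with which annotation, is not given in the sources used here. Of the 48 members, 26 overlap a gene on the opposite strand and 15 overlap a gene with at least 10% of their count. Among the 15 are SLC25A26 (LRIG1), SLC25A34 (AL450998.2), SLC25A35 (RANGRF) and SLC25A51 (TMX2P1), and the members for which an overlapping gene is named above. Pseudogenes named after 14 members hold at most 2.24% of their member's count.

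Samples were grouped by the labels. One edgeR 4.0.16 fit (R 4.3.3, limma 3.58.1) of 16 libraries used TMM scaling, filterByExpr on the 4 groups and the robust quasi-likelihood F test, with Benjamini-Hochberg adjustment over 17647 genes and calls under 0.05. The steps were run on simulated counts in which a small set of genes was changed in MDA-MB-231 with YES1i alone. As many were raised as lowered, and only the MDA-MB-231 comparison was looked at. That run therefore could not check the scaling where many genes change, nor the comparisons between lines. CPM values use the TMM factors, and the SE comes from the F statistic. No replicate pair agreed within sampling noise. Alternatives were DESeq2 1.42.0, upper quartile scaling, RLE scaling, no low-count filter, the compared groups alone, a replicate block and leaving out each library.

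Values in every library are given for the 4 largest called rises and falls of each line without overlap of groups and at 5 CPM or more, the 3 largest called differences each way between changes and between lines, and SLC25A1, SLC25A3 and the ADP/ATP carriers. For SLC25A12 the YES1i libraries are given as a range. Other genes come from lists, with the most changed called gene of each. Counts called in these lists come from the main fit with TMM scaling alone. SLC25A53 and ACLY, and members named for a lost call, were chosen after their values were seen. The members and lists were chosen with earlier results of these data known. Values of 1 member and 1 listed gene are not reported here, though counts include them. GPX1 was listed but matched no protein-coding symbol. Promoter windows are those of RefSeq on GRCh38.p14.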

Additional observations from a re-analysis of the deposited data

Results flagged for a closer look

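The change with YES1i differed between MDA-MB-231 and SUM159 for 14 members by edgeR's test of the difference, given here as MDA-MB-231 minus SUM159 on the log2 scale. The difference was positive for SLC25A1 (1.51), SLC25A13 (0.93), SLC25A23 (0.85), SLC25A10 (0.79), SLC25A39 (0.65), SLC25A44 (0.54), SLC25A11 (0.48), SLC25A17 (0.43), SLC25A29 (0.37) and SLC25A46 (0.27). It was negative for SLC25A6 (-0.27), SLC25A3 (-0.28), SLC25A36 (-0.36) and SLC25A28 (-0.48). The SLC25A46 difference was not called with upper quartile scaling (adjusted p = 0.113) or without the low-count filter (adjusted p = 0.0762).

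In 6 of 139 groups checked, 1 library lay far from the other 3, where chance gives about 1 group in 20. SUM159 YES1i replicate 2 was lowest for SLC25A3, at 560 CPM against 684 to 706, and for SLC25A5, at 228 CPM against 306 to 307. SUM159 DMSO replicate 2 was highest for SLC25A6, at 1070 CPM against 1010 to 1020. SUM159 DMSO replicate 4 was highest for SLC25A12, at 39.0 CPM against 38.1 to 38.2. MDA-MB-231 DMSO replicate 3 was lowest for SLC25A23, at 104 CPM against 113 to 114. MDA-MB-231 YES1i replicate 1 was highest for SLC25A15, at 10.9 CPM against 8.76 to 8.95.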

How the results depend on the processing

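Over 164 values of members (41 members in 4 comparisons), 3565 alternative values were computed. None reversed a called direction, 3457 kept their side of the threshold, 51 lost a call and 57 gained one. Values called in neither setting were counted as kept even where their sign changed. With upper quartile scaling, the SUM159 count of higher members was 14 in place of 9, and the count of lower differences between the lines was 8 in place of 4; scaling alone was changed, and the cause was not tested. RLE scaling and DESeq2 each gave 13 higher and 14 lower members in SUM159. The counts over all tested genes moved as well, from 4431 higher and 4674 lower in the main fit. They were 5052 and 4137 with RLE scaling, 5105 and 4185 with DESeq2, and 5985 and 3454 with upper quartile scaling. Leaving out each library in turn gave 13 to 14 higher and 9 to 10 lower members in MDA-MB-231, 8 to 10 higher and 14 to 16 lower in SUM159, 10 to 11 higher and 4 to 5 lower differences, and 13 to 15 higher and 10 to 14 lower members between the lines in DMSO. The calls of SLC25A38 in MDA-MB-231 and SLC25A33 in SUM159 were lost under most alternatives.

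The labels give the groups the same replicate numbers. The deviations of same-numbered libraries from their group means had correlations of -0.163 to 0.028, so the numbers were not taken as pairs. Of the DMSO libraries, only MDA-MB-231 replicate 2 correlated best with the YES1i library of its own number. With the replicate block the counts were 13 higher and 9 lower members in MDA-MB-231, 9 and 14 in SUM159, 10 and 4 for the difference and 13 and 13 between the lines. Depth limits members near 1 CPM, such as SLC25A18, SLC25A32 and SLC25A34, whose standard errors were 0.38 to 0.65.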
